A study of Mus musculus with 36 samples.

Results

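The strain difference between DBA/2J and C57BL/6J brains after sleep deprivation was measured on 6 of the 36 Affymetrix arrays of a study of sleep loss in inbred mice. The 3 brain arrays of sleep-deprived DBA/2J mice were set against the 3 brain arrays of sleep-deprived C57BL/6J mice. All 45037 probe sets that are not array controls were included, of 45101 on the array. Both strains are inbred lines that carry no transgene or induced mutation, and the mice were males aged 12 to 13 weeks. They had been kept awake for 6 h from light onset and were killed at ZT 6, that is 6 h after lights on. Each array held whole-brain RNA pooled from 3 mice, so that a strain was represented by 9 mice and the spread between arrays is a spread between pools. The home-cage controls of both strains, the sleep-deprived AKR/J brains and the sleep-deprived livers of both strains were used beside them. The brain arrays of AKR/J controls entered as well, though only through the spread of the 18-array fit. The labels give 2 times of sacrifice for arrays 2 and 3 of those controls, ZT 6 in the titles and ZT 0 in the source names, and 712 probe sets passed without AKR/J, against 915 with it. A difference is given as DBA/2J minus C57BL/6J on the log2 scale of the deposited expression values, with its standard error after ±. A probe set was called where limma, a linear model with moderated variances, gave an adjusted p under 0.05.

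C57BL/6J and DBA/2J are among the oldest inbred mouse strains, and they differ at many sites in the genome and in sleep, electroencephalogram, stress and alcohol traits. Sleep deprivation is known to induce activity-regulated genes, such as Homer1 and Fos, and chaperones of the endoplasmic reticulum, such as Hspa5, in the brain, and to lower clock output genes such as Dbp. On these arrays the probes were designed on reference sequence, so a sequence difference under a probe can also alter the signal of that probe set.

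The 6 arrays were closely alike, with Pearson correlations of 0.984 to 0.997 within a strain and 0.979 to 0.992 between strains over all probe sets. DBA/2J array 2 correlated with C57BL/6J array 1 at 0.986, above its 0.984 and 0.985 with DBA/2J arrays 1 and 3. DBA/2J array 2 and C57BL/6J array 1 had a narrower spread of values than the others, with SDs over probe sets of 1.93 and 1.90, against 2.02 to 2.04 on the other 4 arrays. Without both of these arrays and the narrow AKR/J array, 1014 probe sets were called, 461 higher and 553 lower. Growth hormone, Gh, a pituitary hormone, read 10.92, 12.36 and 10.98 in DBA/2J, against 11.72, 12.16 and 4.24 in C57BL/6J. C57BL/6J array 3 was thus the array of the 6 with a Gh value below the others by over 6 log2 units, and its mean over 10 pituitary markers was 4.46, against 6.28 to 7.20 on the 3 DBA/2J arrays and 6.60 and 6.77 on the other C57BL/6J arrays. None of these 10 markers was called. The part of the pituitary in other results was not tested. Neuron markers averaged 10.71 to 10.83 over the DBA/2J arrays and 10.66 to 10.83 over the C57BL/6J arrays (12 genes).

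In sleep-deprived brain 915 of 45037 probe sets were called (2.03%), of which 361 were higher in DBA/2J (0.802%) and 554 lower (1.23%). The values of the 3 DBA/2J arrays did not overlap those of the 3 C57BL/6J arrays for 914 of the 915, while over all probe sets 5273 were without overlap (11.7%). The median size of the difference was 0.73 among called probe sets and 0.09 among all, and the smallest called difference was 0.29. A difference of at least 1, that is 2-fold, was seen for 116 higher and 153 lower probe sets. At least 2 was reached by 24 higher and 37 lower, and at least 3 by 7 higher and 13 lower. Of the called probe sets, 719 carried 1 gene symbol, 46 several and 150 none. With each gene represented by its brightest probe set, 350 of 18193 genes were called (1.92%), 159 higher (0.874%) and 191 lower (1.05%). The arrays had been given like distributions before deposit, and the median difference of all genes was -0.00. With arrays centred on their medians the calls were 349 higher and 425 lower. The count depended on the fit: 345 probe sets passed when only the 6 arrays entered it, and 4517 with array weights. The weights change the group means as well as the spread. They ran from 0.19 for sleep-deprived C57BL/6J array 1 to 5.15 for sleep-deprived C57BL/6J array 2.

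Cap1, which encodes a cyclase-associated protein that turns over actin filaments, had the largest difference among genes higher in DBA/2J. It read 9.55, 9.19 and 9.62 in DBA/2J, against 5.84, 5.45 and 5.51 in C57BL/6J. The groups were far apart, and the difference of 3.86 ± 0.13 amounts to 14.5-fold (adjusted p = 2.19e-11). The other probe set of Cap1 gave 4.22, in the same direction. Stab2, a scavenger receptor of endothelial cells that takes up hyaluronan, read 6.83, 6.88 and 7.56 in DBA/2J, against 4.37, 3.95 and 4.21 in C57BL/6J. All of its DBA/2J values lay above all of its C57BL/6J values, with a difference of 2.92 ± 0.18. Tmem87a, a membrane protein of the Golgi, read 7.77, 7.51 and 7.81 in DBA/2J, against 4.71, 5.02 and 4.74 in C57BL/6J. Rbm45, an RNA-binding protein, read 7.31, 7.38 and 7.47 in DBA/2J, against 4.72, 5.06 and 4.86 in C57BL/6J. The strains did not overlap for either, and the differences were 2.87 ± 0.11 for Tmem87a and 5.67-fold for Rbm45. Wdfy1, a protein of early endosomes, read 8.02, 7.71 and 8.03 in DBA/2J, against 5.48, 5.74 and 5.93 in C57BL/6J, a 4.59-fold difference (2.20 ± 0.11), and 3 of its 5 probe sets were called higher.

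Gnb1, the beta subunit of heterotrimeric G proteins and another of the 15 largest higher differences, read 11.02, 10.94 and 10.99 in DBA/2J, against 9.07, 9.18 and 9.14 in C57BL/6J. The difference was 1.85 ± 0.16 (3.61-fold), and the arrays of a strain lay close together. Of 3 probe sets of Gnb1, 2 were called higher, and the other, at -0.24, was not called. Kcnj9, which encodes the GIRK3 subunit of potassium channels opened by G proteins, read 9.22, 8.99 and 9.28 in DBA/2J, against 7.32, 7.59 and 7.46 in C57BL/6J. Its difference was 1.70 ± 0.12 (adjusted p = 1.67e-07), and 2 of its 4 probe sets were called, both higher. Pam, the enzyme that amidates neuropeptides, read 6.22, 6.60 and 6.21 in DBA/2J, against 4.76, 4.58 and 4.41 in C57BL/6J. It was thus higher on every DBA/2J array, by 1.76 ± 0.11. Alad, an enzyme of heme synthesis whose gene is known to be duplicated in DBA/2J, averaged 8.53 ± 0.04 in DBA/2J, against 7.07 ± 0.18 in C57BL/6J (SD, n = 3 each). The difference of 1.46 ± 0.09 was 2.76-fold, the strains did not overlap, and both of its probe sets were called higher. Lsm12, Hddc3, Pisd-ps3, Rpl14 and Prune2 differed by 1.90, 1.83, 1.76, 1.60 and 1.48. Lsm12 and Hddc3 each had a probe set that was not called, at 0.19 and -0.12. Serpina1b, a member of the alpha-1-antitrypsin family, read 5.49, 6.45 and 5.33 in DBA/2J, against 4.61, 3.93 and 3.82 in C57BL/6J, with a difference of 1.64 ± 0.30. It was the noisiest of the 15, and it did not pass when only the 6 arrays were fitted (adjusted p = 0.0891). Adjusted p over the 15 genes ran from 2.19e-11 to 0.00486.

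**Figure D1:**
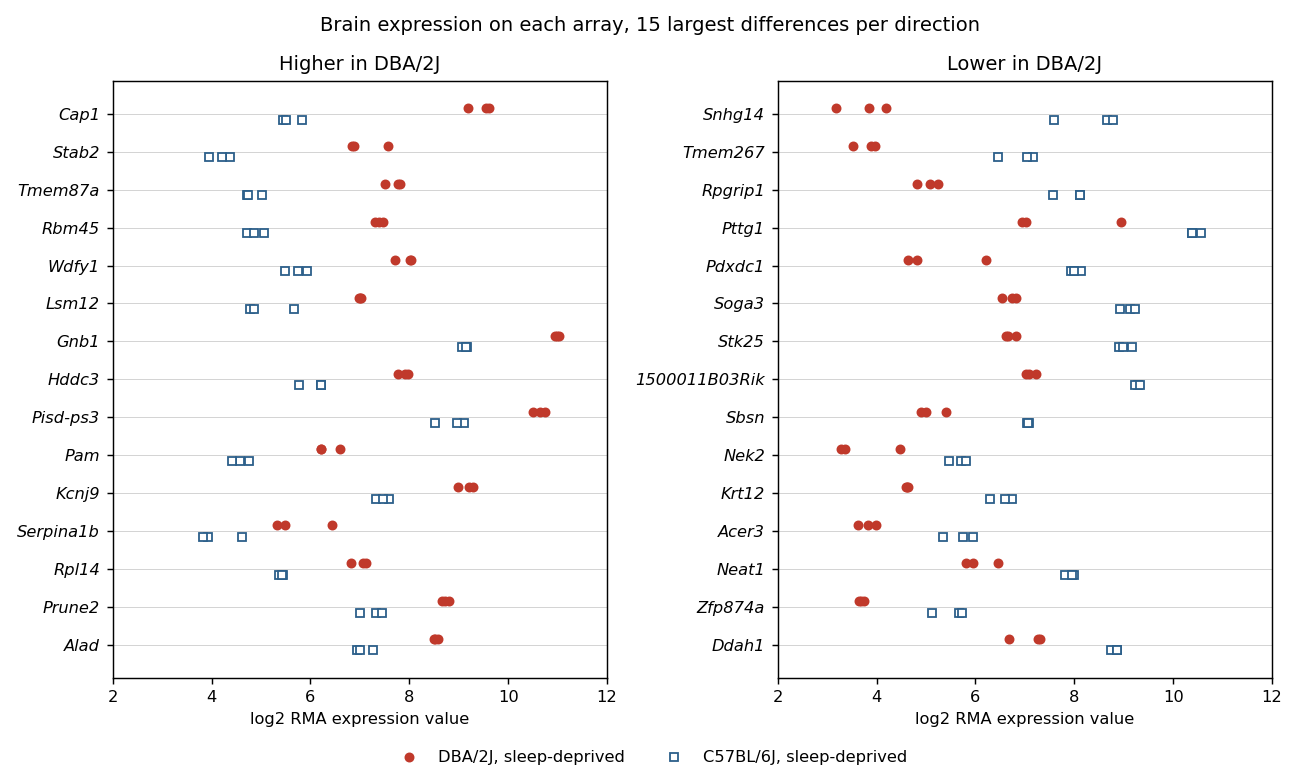
The horizontal axes give log2 RMA expression values on single brain arrays, with filled circles for the 3 sleep-deprived DBA/2J arrays and open squares for the 3 sleep-deprived C57BL/6J arrays. Each row is 1 of the 15 genes with the largest called differences in either direction, which run from 1.46 to 3.86 in size among the higher genes and from 1.74 to 4.61 among the lower, and in no row do the strains overlap.

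Snhg14, a long noncoding transcript that hosts small nucleolar RNAs of the imprinted Prader-Willi and Angelman region, had the largest measured difference of all genes on their brightest probe sets, and it was lower in DBA/2J. It read 3.84, 3.18 and 4.19 in DBA/2J, against 7.59, 8.66 and 8.78 in C57BL/6J. The DBA/2J values were near the bottom of the scale, whose lowest brain value was 2.42, and the measured difference was -4.61 ± 0.26 (adjusted p = 4.97e-09). The values carry no detection calls, so for genes this dim in a strain, below the median array value of 4.77, the measured size can understate the difference. Its other probe sets, both dim, gave -0.05 and 0.01 and were not called. Tmem267, a membrane protein of little known function, read 3.88, 3.53 and 3.97 in DBA/2J, against 6.46, 7.16 and 7.05 in C57BL/6J. Rpgrip1, a protein of the photoreceptor connecting cilium, read 5.24, 4.82 and 5.08 in DBA/2J, against 7.58, 8.11 and 8.12 in C57BL/6J. Both were lower on every DBA/2J array, with differences of -3.10 ± 0.22 and -2.89 ± 0.19. Pttg1, securin, which restrains chromosome separation in mitosis, read 7.01, 8.94 and 6.95 in DBA/2J, against 10.56, 10.39 and 10.39 in C57BL/6J. DBA/2J array 2, an array of narrow spread, stood higher than the other DBA/2J arrays but still below every C57BL/6J array, and the difference was -2.81 ± 0.43 (adjusted p = 9.66e-04). All 3 probe sets of Pttg1 were called lower, and with only the 6 arrays fitted its adjusted p was 0.0502.

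Further genes of the 15 largest lower differences included Stk25, a kinase of the Golgi and of neuronal polarity. It read 6.67, 6.82 and 6.62 in DBA/2J, against 8.91, 8.99 and 9.16 in C57BL/6J, a 4.99-fold difference (-2.32 ± 0.10). Soga3 read 6.81, 6.54 and 6.74 in DBA/2J, against 8.93, 9.13 and 9.22 in C57BL/6J, and the difference was -2.40 ± 0.12. In both genes the arrays of a strain lay close together, while the strains were more than 2 log2 units apart. The other probe set of Soga3 gave -0.19 and was not called. Neat1, the long noncoding RNA that builds nuclear paraspeckles, read 5.95, 6.45 and 5.80 in DBA/2J, against 7.82, 7.99 and 7.96 in C57BL/6J. The difference was -1.86 ± 0.14, and the second probe set, at -0.08, was not called. Ddah1, which breaks down the nitric oxide synthase inhibitor dimethylarginine, read 7.30, 6.67 and 7.26 in DBA/2J, against 8.74, 8.86 and 8.87 in C57BL/6J (-1.74 ± 0.21). Acer3, an alkaline ceramidase, read 3.98, 3.62 and 3.83 in DBA/2J, against 5.35, 5.75 and 5.96 in C57BL/6J (-1.88 ± 0.21). Strains stood apart in each of these, and 3 of 5 probe sets of Ddah1 and 1 of 4 of Acer3 were called, all lower. The keratin Krt12, the mitotic kinase Nek2, suprabasin (Sbsn), Zfp874a, Pdxdc1 and 1500011B03Rik completed the group, with differences of -1.93, -1.95, -1.96, -1.81, -2.80 and -2.17. When the median of a gene's probe sets replaced the brightest, Pdxdc1, Rpgrip1, Snhg14, Nek2, Acer3, Ddah1 and, among the higher genes, Kcnj9 did not pass (adjusted p = 0.634, 0.981, 0.238, 0.851, 0.645, 0.169 and 0.0984), and Prune2 turned to -1.31.

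Probe sets of a gene often disagreed. A called probe set was present in 600 genes, and 454 of these had more than 1 probe set. In 37 of the 454 all probe sets were called in 1 direction, in 400 some were called and the others not, and in 17 probe sets were called in both directions. Pdxdc1, a protein with a pyridoxal-dependent decarboxylase domain, was one of the 17. Its brightest probe set read 4.82, 6.22 and 4.63 in DBA/2J, against 8.13, 7.94 and 7.99 in C57BL/6J, and another read 7.34, 7.13 and 7.12 in DBA/2J, against 3.97, 3.74 and 3.69 in C57BL/6J. The brightest was thus lower in DBA/2J (-2.80 ± 0.26) and the other higher (3.40 ± 0.13), and the remaining probe sets were called lower at -1.03 and -0.44. Prune2 gave 1.48 ± 0.13 on its brightest probe set and -4.70 ± 0.16 on another, whose values were 3.52, 3.31 and 3.32 in DBA/2J, against 7.96, 8.13 and 8.15 in C57BL/6J. Camk2n1, an inhibitor of calcium/calmodulin-dependent kinase II, was slightly higher on a very bright probe set (12.90, 12.83 and 12.82 in DBA/2J, against 12.28, 12.33 and 12.33 in C57BL/6J). On its other probe set it was lower by 2.48 ± 0.12. 1500011B03Rik, the methionine salvage enzyme Adi1 and the neuronal transcription factor Bcl11b had lower and higher calls of -2.17 and 1.16, -2.11 and 0.87, and -2.14 and 0.54. Whether sequence differences under the probes or the use of different transcript ends took part in these differences was not tested, and no direction can be given for these genes as a whole. Where Pdxdc1, Prune2 and 1500011B03Rik are called higher or lower elsewhere, this refers to the brightest probe set.

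**Figure D2:**
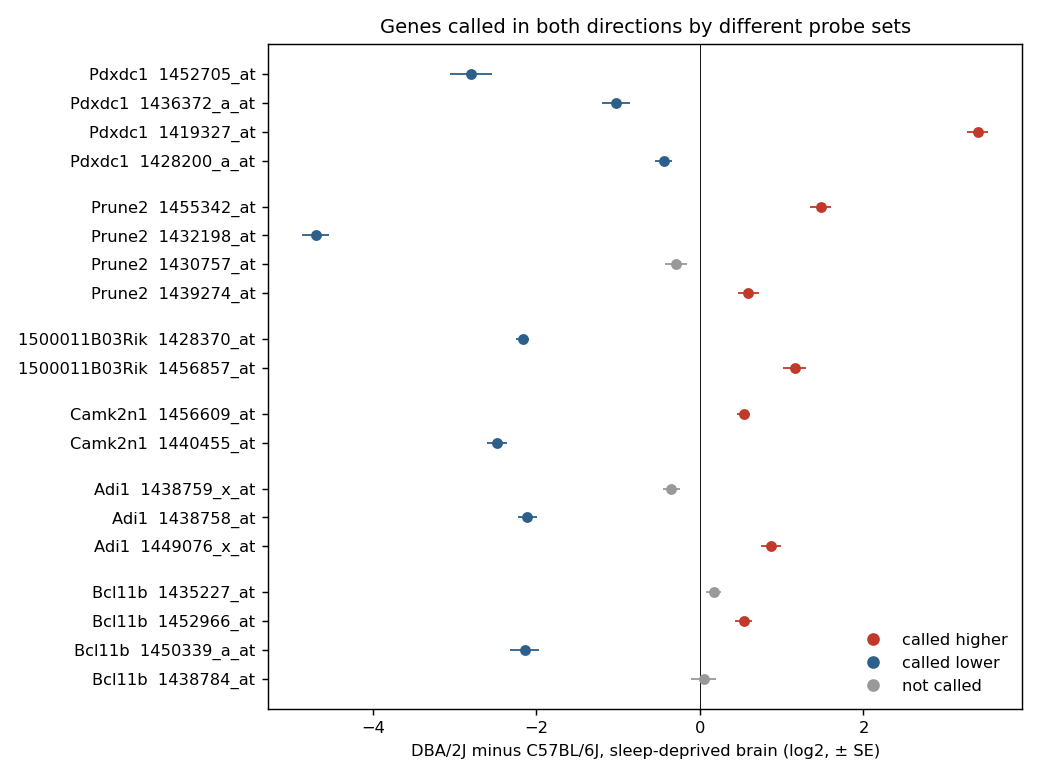
Each point is 1 probe set, the horizontal axis gives the log2 difference of DBA/2J minus C57BL/6J in sleep-deprived brain, and bars are standard errors from limma. For the 6 genes shown, probe sets called higher and called lower stand on opposite sides of 0, as for Pdxdc1 at 3.40 and -2.80.

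Genes of synapses and ion channels mostly did not pass. Of 16 GABA genes measured, Gabra2, the alpha-2 subunit of the GABA-A receptor, was the single call (list median -0.04). It read 7.56, 6.73 and 7.45 in DBA/2J, against 5.11, 6.43 and 6.31 in C57BL/6J. The strains did not overlap, although array 2 of DBA/2J came near the upper C57BL/6J values, and the difference was 1.30 ± 0.27 (adjusted p = 0.0135). In all, 3 of its 5 probe sets were called higher, at 1.04 to 1.30. Gabra2 did not pass without DBA/2J array 1 (0.0819) or DBA/2J array 3 (0.0775), nor without AKR/J (0.0612), with these adjusted p in brackets. Of 32 glutamate receptor and scaffold genes (median 0.02), Slc17a7, the vesicular glutamate transporter VGLUT1, was the single call. It read 8.74, 8.52 and 8.67 in DBA/2J, against 9.08, 9.16 and 9.21 in C57BL/6J, lower in DBA/2J by 0.51 ± 0.11. It did not pass without DBA/2J array 2 (0.0798), DBA/2J array 3 (0.0574), C57BL/6J array 2 (0.0714) or C57BL/6J array 3 (0.0872). Both also failed with only the 6 arrays fitted (adjusted p = 0.344 and 0.119). Gria1, Grin2b and Slc1a2 were called on a probe set other than the brightest, at 0.96, -1.46 and 1.46.

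Of 34 potassium channel genes (median 0.05), 2 were called, both higher: Kcnj9, described above, and Kcnj10, the glial inward rectifier Kir4.1. Kcnj10 read 8.98, 8.72 and 9.01 in DBA/2J, against 8.41, 8.48 and 8.47 in C57BL/6J. The strains were apart by 0.45 ± 0.11 (adjusted p = 0.0335). The call was lost without AKR/J (adjusted p = 0.0761) and with arrays centred on their medians (0.0520). Kcnj10 did not pass without DBA/2J array 1 (0.142), DBA/2J array 3 (0.171), C57BL/6J array 1 (0.105), C57BL/6J array 2 (0.0925) or C57BL/6J array 3 (0.0924), nor with only the 6 arrays fitted (0.255). None of 25 sodium and calcium channel genes (median 0.08), 36 monoamine, adenosine and acetylcholine genes (median -0.03), 26 neuropeptides (median 0.04) or 17 regulators of G-protein signalling (median 0.02) was called on its brightest probe set. Cacna1b, a subunit of N-type calcium channels, was called on another probe set at 0.63. Among the neuropeptides the values ran from -0.31 for Hcrt, the wake-promoting orexin precursor, to 0.42 for Pmch, the melanin-concentrating hormone precursor. Over all genes the share called was 1.92%, and counts of 0 to 2 in lists of 16 to 36 genes lie near it. Without DBA/2J array 2, 2 neuropeptides were called.

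**Figure D3:**
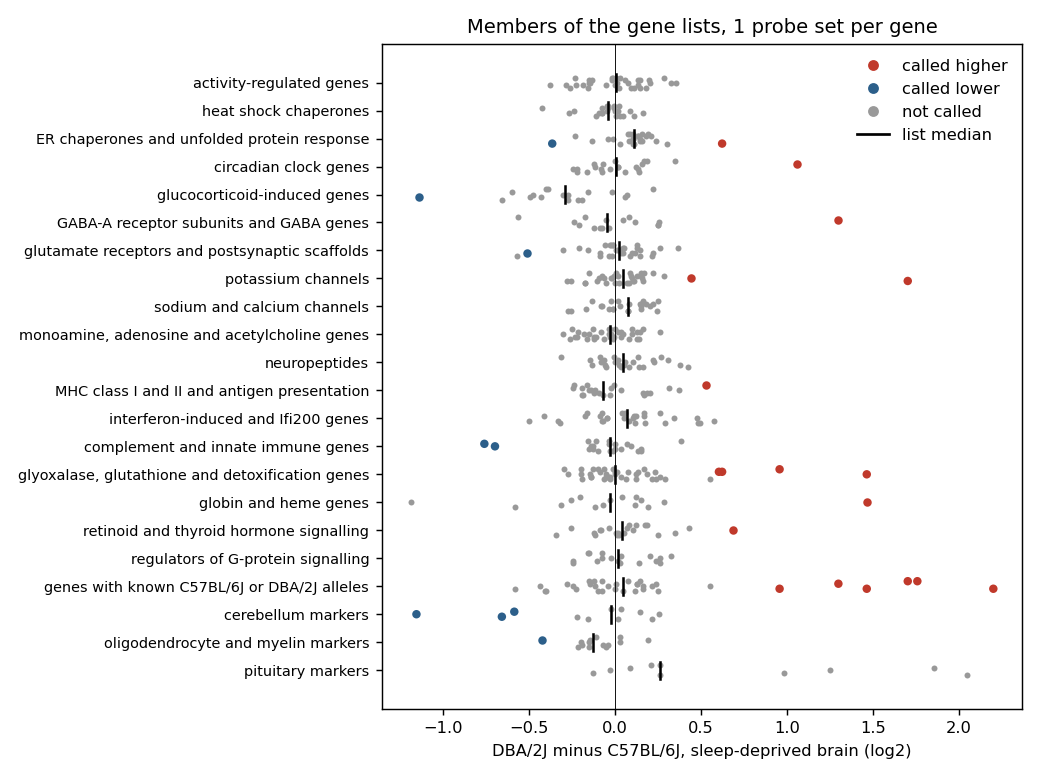
Each point is the log2 difference of DBA/2J minus C57BL/6J in sleep-deprived brain for 1 gene on its brightest probe set, rows are gene lists, and vertical strokes are list medians. Called genes are coloured. The activity-regulated, heat shock, interferon, neuropeptide and monoamine lists held none, where 1.92% of all genes were called. Of 41 detoxification genes 4 were called higher, where 0.874% of all genes were. The lists were chosen with earlier results of these data known.

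None of 34 activity-regulated genes was called on its brightest probe set (median 0.01, range -0.38 for Nptx2 to 0.35 for Fosl2), against 1.92% of all genes, a count that a list of this size cannot tell from that share. Ier5, an immediate early gene, was called on another probe set at -1.32, while its brightest gave 0.29. Fos, the transcription factor used as a mark of neuronal activity, read 7.94, 7.18 and 7.64 in DBA/2J, against 7.44, 7.55 and 7.82 in C57BL/6J. Arc, a synaptic protein, read 8.14, 7.84 and 7.91 in DBA/2J, against 8.07, 8.11 and 8.27 in C57BL/6J. The strains overlapped in both, with differences of -0.01 ± 0.20 (95% interval -0.44 to 0.41) and -0.18 ± 0.15 (-0.51 to 0.14). Homer1, the synaptic scaffold, had 6 probe sets with differences of 0.01 to 0.21, and none was called. The Homer1 probe set with the largest interaction, picked after its values were seen, gave 0.21 ± 0.28 in sleep-deprived brains and -1.12 ± 0.28 in control brains, and its interaction did not pass. Bdnf gave 0.32 ± 0.18 and was not called. Npas4, the activity-induced transcription factor, gave -0.13 ± 0.17 in sleep-deprived brains and 0.78 ± 0.17 in control brains, where it passed (adjusted p = 0.0243). The 23 heat shock genes held no call (median -0.04) and held 1 without C57BL/6J array 1.

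Of 26 genes of the endoplasmic reticulum and the unfolded protein response (median 0.11), Pdia4 was called higher and Atf4 lower. Pdia4, a disulfide isomerase, read 7.35, 7.57 and 7.61 in DBA/2J, against 6.94, 6.82 and 6.91 in C57BL/6J, a difference of 0.62 ± 0.12 (adjusted p = 0.00520). Atf4, the transcription factor of the integrated stress response, averaged 9.53 ± 0.03 in DBA/2J, against 9.89 ± 0.05 in C57BL/6J (SD, n = 3 each), a difference of -0.36 ± 0.07 (adjusted p = 0.00699). Neither gene overlapped between strains, and neither passed with only the 6 arrays fitted (adjusted p = 0.0637 and 0.278) or on the median of its probe sets (0.130 and 0.754). Pdia3, another disulfide isomerase, was called on another probe set, lower at -0.74, while its brightest gave 0.16. Hspa5, an abundant chaperone there, gave 0.14 ± 0.08 and was not called.

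Of 22 clock genes (median 0.01), Per3, a period family member, was called higher, and without DBA/2J array 2 there were 2 calls. It read 7.29, 6.69 and 7.39 in DBA/2J, against 5.89, 6.09 and 6.21 in C57BL/6J, a difference of 1.06 ± 0.14 (adjusted p = 2.45e-04). The arrays of the strains did not overlap, and 2 of 6 probe sets were called, both higher, at 1.06 each. Per3 did not pass with only the 6 arrays fitted (adjusted p = 0.0696) or on the median of its probe sets (0.724). Csnk1e, the kinase that phosphorylates period proteins, was called on another probe set at 1.65, while its brightest gave -0.12. Per2 (-0.07 ± 0.23) and Dbp (0.35 ± 0.11) were not called. The cold-inducible RNA-binding protein Cirbp, which falls with sleep loss, gave -0.15 ± 0.14 and was not called.

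Of 18 glucocorticoid-induced genes 1 was called, and the list median was -0.29, against -0.00 over all genes. Klf9, a Krüppel-like factor induced by glucocorticoid and thyroid hormone, read 10.47, 10.19 and 10.37 in DBA/2J, against 11.50, 11.48 and 11.47 in C57BL/6J. It was lower in DBA/2J by 1.14 ± 0.11 (adjusted p = 7.57e-06), and 4 of its 7 probe sets were called lower, though the median of the 7 did not pass (adjusted p = 0.384). The 7 ran from -1.14 to 0.73, and the highest was not called. Sgk1, a kinase induced by glucocorticoid, read 9.54, 8.79 and 9.07 in DBA/2J, against 9.49, 9.71 and 10.01 in C57BL/6J. Its difference of -0.60 ± 0.18 was not called (adjusted p = 0.148), and C57BL/6J array 1 lay within the DBA/2J range. Ddit4, Zbtb16, Tsc22d3, Plin4, Gjb6 and Sult1a1 gave -0.39, -0.40, -0.43, -0.49, -0.48 and -0.66, none of them called. These were picked after their values were seen, and the list ran from -1.14 for Klf9 to 0.22 for Nr3c1. The median of the same list in control brain was -0.02, while Klf9 gave -1.21 there. The count of calls rested on single arrays: it was 5 without C57BL/6J array 1, 4 without DBA/2J array 1, 2 without DBA/2J array 2, 6 after quantile normalisation and 11 with array weights.

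Immune lists held 2 of 22, 1 of 23 and 0 of 30 calls, where 1.92% of all genes were called. C1qb and C1qc, which encode chains of the complement starter C1q made by microglia in brain, were the 2 calls among 22 complement and innate immune genes (median -0.03). C1qb read 7.78, 7.82 and 7.64 in DBA/2J, against 8.31, 8.53 and 8.48 in C57BL/6J, and C1qc read 7.16, 6.90 and 6.99 in DBA/2J, against 7.78, 7.81 and 7.74 in C57BL/6J. Both were lower in DBA/2J, by 0.70 ± 0.11 and 0.76 ± 0.15, and all 3 probe sets of C1qb were called lower. Cd59a, an inhibitor of the complement attack complex, was called on another probe set at 0.52, while its brightest gave 0.39. The 11 microglia markers, a list with C1qa, held no call (median -0.07), and their mean log2 value was 6.37 to 6.43 on the DBA/2J arrays, below the 6.45 to 6.49 on the C57BL/6J arrays. In the list of 23 major histocompatibility and antigen presentation genes (median -0.07), H2-Ke6 was called at 0.53 ± 0.11. H2-Ke6 is named for its place in the histocompatibility locus and encodes an enzyme, not an antigen-presenting protein. It did not pass without DBA/2J array 1 (0.0686), DBA/2J array 3 (0.0597) or C57BL/6J array 1 (0.0623), nor with only the 6 arrays fitted (0.162). Without AKR/J its adjusted p was 0.0591. H2-D1, a classical class I gene, was called on 3 of 9 probe sets, at 2.55, 2.74 and 3.59, while its brightest gave 0.17. The strains carry different haplotypes at this locus, and probe sets of related class I genes may share signal.

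None of 30 interferon-induced genes was called in sleep-deprived brain (median 0.07, range -0.50 for Xaf1 to 0.58 for Ifitm3). Without DBA/2J array 2 there was 1 call. In control brain 6 were called, where 1.77% of all genes were called, with Ifitm3, Ifit3, Gbp3, Ifit1 and Gbp2 higher and Trim34a lower. Ifit1, an RNA-binding antiviral protein, averaged 4.11 ± 0.22 in DBA/2J, against 4.03 ± 0.22 in C57BL/6J after sleep deprivation (SD, n = 3 each), with overlapping arrays. In control brains it read 5.37, 4.69 and 4.58 in DBA/2J, against 3.78, 3.82 and 3.76 in C57BL/6J, without overlap. The strain difference was 0.08 ± 0.17 in the sleep-deprived and 1.10 ± 0.17 in the control arrays, and the interaction of -1.01 (95% interval -1.54 to -0.49) did not pass after adjustment. Gbp3, a guanylate-binding protein, gave 0.18 ± 0.12 in the sleep-deprived and 0.82 ± 0.12 in the control arrays, with an interaction of -0.64 that did not pass either.

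Detoxification genes held 4 calls among 41 on their brightest probe sets, all higher in DBA/2J (list median -0.00), where 1.92% of all genes were called. Prdx2 of this list was called on another probe set, lower at -2.46, while its brightest gave 0.24. Besides Alad the 4 higher calls were Glo1, Gsr and Mgst3. Glo1, glyoxalase 1, which clears methylglyoxal and is known to be duplicated in DBA/2J, read 10.12, 9.92 and 10.15 in DBA/2J, against 9.07, 9.09 and 9.16 in C57BL/6J. The strains were well apart (0.96 ± 0.13, adjusted p = 3.33e-04), and all 4 probe sets were called higher, at 0.89 to 1.25. Gsr, glutathione reductase, read 7.57, 7.25 and 7.59 in DBA/2J, against 7.02, 6.72 and 6.80 in C57BL/6J (0.62 ± 0.11). Mgst3, a microsomal glutathione transferase, read 10.34, 10.11 and 10.33 in DBA/2J, against 9.65, 9.64 and 9.68 in C57BL/6J (0.61 ± 0.15). Neither gene overlapped between strains. The other probe set of each, at 0.29 for Gsr and -0.02 for Mgst3, was not called. On the median of its probe sets Mgst3 did not pass (adjusted p = 0.276), nor did it with arrays centred on their medians (0.0537). Mgst3 did not pass without DBA/2J array 1 (0.147), DBA/2J array 3 (0.151), C57BL/6J array 1 (0.0971), C57BL/6J array 2 (0.126) or C57BL/6J array 3 (0.104), and Gsr, Mgst3 and Aldh1a2, described next, did not pass with only the 6 arrays fitted (adjusted p = 0.153, 0.0594 and 0.236). Nnt, the mitochondrial transhydrogenase that carries a known deletion in C57BL/6J, read 7.29, 6.77 and 7.11 in DBA/2J, against 6.12, 6.77 and 6.63 in C57BL/6J. Array 2 of DBA/2J and array 2 of C57BL/6J had the same value to 2 decimals, and the difference of 0.55 ± 0.16 was not called (adjusted p = 0.104). Of 15 globin and heme genes Alad was the single call (2 calls without DBA/2J array 3 or C57BL/6J array 3), and Alas2 of red cells gave -1.18 without passing. Of 22 retinoid and thyroid hormone genes Aldh1a2, which makes retinoic acid, was the single call, lost without AKR/J (adjusted p = 0.0603). It read 5.97, 6.54 and 5.92 in DBA/2J, against 5.52, 5.40 and 5.45 in C57BL/6J (0.69 ± 0.14) and did not pass without C57BL/6J array 2 (0.0705) or C57BL/6J array 3 (0.0569), nor without the arrays of narrow spread (adjusted p = 0.0618).

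Of 35 genes listed because alleles of C57BL/6J or DBA/2J are known, 6 were called on their brightest probe set, all higher in DBA/2J (0.874% of all genes were called higher): Wdfy1, Pam, Kcnj9, Alad, Gabra2 and Glo1. Myo5a, the motor protein of the dilute coat colour locus, was called on another probe set, lower at -0.53, while its brightest gave -0.24. The list was compiled with earlier results of these data known, so this count is a description. The same 6 were the calls of this list in control brain, on the brightest probe sets.

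Cell type markers were called in the oligodendrocyte, meninges and cerebellum lists, where 1.92% of all genes were called. None of 12 neuron, 12 astrocyte, 14 endothelial and pericyte, 12 choroid plexus, 6 red cell, 9 hepatocyte, 9 lymphocyte, 10 retina and pineal, 8 striatum or 11 hypothalamus and olfactory bulb markers was called on its brightest probe set. Without C57BL/6J array 1 an astrocyte marker was called, without DBA/2J array 2 a hepatocyte and a hypothalamus or olfactory bulb marker, and without C57BL/6J array 3 or DBA/2J array 3 a red cell marker. Ighm, the immunoglobulin heavy chain of the lymphocyte list, was called on other probe sets at -1.07 and -1.42, while its brightest gave -0.14. Of 12 meninges and fibroblast markers 1 was called, Aldh1a2. Of 14 oligodendrocyte and myelin markers 1 was called, the myelin protein Mal, at -0.42 ± 0.10, and it did not pass without DBA/2J array 1 (0.0603), DBA/2J array 2 (0.111), C57BL/6J array 2 (0.123) or C57BL/6J array 3 (0.142). The list mean was 9.18, 8.96 and 9.20 in DBA/2J, against 9.03, 9.32 and 9.31 in C57BL/6J. Cerebellar genes held 3 calls of 11, all lower in DBA/2J, where 1.05% of all genes were called lower. Cbln3, a cerebellin of granule cells, read 8.35, 8.01 and 8.15 in DBA/2J, against 9.18, 9.38 and 9.41 in C57BL/6J (-1.15 ± 0.11, adjusted p = 6.62e-06). Car8, a carbonic anhydrase relative of Purkinje cells, read 9.46, 9.05 and 9.32 in DBA/2J, against 9.71, 9.99 and 10.10 in C57BL/6J (-0.66 ± 0.12), and all 3 of its probe sets were called lower. Zic1, a granule cell transcription factor, read 9.61, 9.24 and 9.49 in DBA/2J, against 9.79, 10.11 and 10.20 in C57BL/6J (-0.58 ± 0.13), and it did not pass without DBA/2J array 2 (0.0946), DBA/2J array 3 (0.0577), C57BL/6J array 2 (0.0993) or C57BL/6J array 3 (0.120). The other probe set of Zic1 gave -0.06 and was not called, and the median of its probe sets did not pass (adjusted p = 0.340). Strains did not overlap in any of the 3. With only the 6 arrays fitted, adjusted p was 0.388 for Mal, 0.180 for Car8 and 0.261 for Zic1, while Cbln3 passed. Without AKR/J adjusted p was 0.0877 for Mal and 0.0588 for Zic1, and with arrays centred on their medians 0.0910 and 0.0722. The Purkinje marker Pcp2 gave -0.22 and the granule cell marker Gabra6 0.26, neither called, and the list median was -0.02. The list mean was 8.85, 8.56 and 8.74 in DBA/2J, against 8.78, 8.95 and 9.00 in C57BL/6J. In control brain the cerebellar list also held 3 calls, all lower, where 1.77% of all genes were called. In whole brain RNA, fewer cells of a type and less RNA per cell cannot be told apart.

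Most of these strain differences were also called without sleep deprivation. The means of this comparison came from the 6 control brain arrays of both strains, but its spread came from the same 18-array fit, so the 2 sets of calls share their error estimate. In control brain 854 probe sets were called (1.9%), 361 higher (0.802%) and 493 lower (1.09%). Of the 915 calls in sleep-deprived brain 630 (68.9%) were also called in control brain, and these were 73.8% of the control calls. All 630 had the same direction. Of the 915 calls, 904 had the same sign in control brain whether called there or not. The 285 calls of the sleep-deprived brains that were not called in controls were smaller, with a median size of 0.54, against 0.86 for the calls made in both, and 274 of them had the same sign in controls. By gene, 231 of the 350 were called in both conditions, in the same direction, while 1.77% of all genes were called in control brain. Of the 30 genes with the largest differences, 29 were called in control brain, and Serpina1b was not (1.13 ± 0.30, adjusted p = 0.0713). Cap1 read 9.37, 9.49 and 9.19 in DBA/2J, against 5.49, 5.24 and 5.43 in C57BL/6J in control brains, and Snhg14 read 4.28, 4.16 and 3.89 in DBA/2J, against 8.71, 8.83 and 8.59 in C57BL/6J. The differences there, 3.96 ± 0.13 and -4.60 ± 0.26, were close to those after sleep deprivation.

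**Figure D4:**
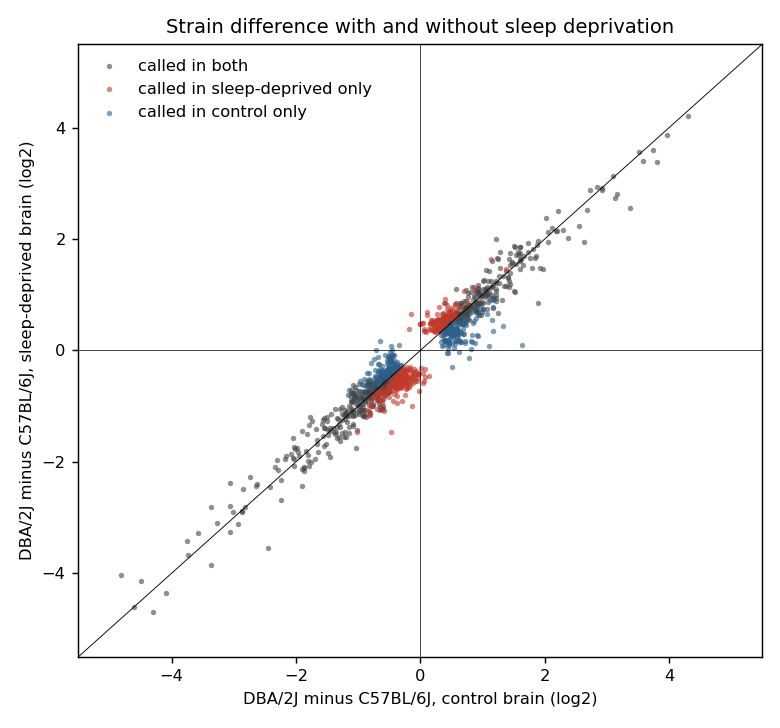
Each point is 1 probe set called in either condition, with the log2 difference of DBA/2J minus C57BL/6J in control brain on the horizontal axis and in sleep-deprived brain on the vertical axis. The line marks equal differences, and the 630 probe sets called in both conditions follow it on the same side of 0.

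Whether sleep deprivation altered the strain difference was tested with the interaction of strain and condition. No probe set passed in limma (smallest adjusted p = 0.219), and 1217 had an unadjusted p under 0.05 (2.7%). That share lay below the 0.05 expected with no interaction at any probe set, so small p were not in excess. The 10 genes with the smallest unadjusted p were Ffar2, Tsks, Ifit1, Fgl1, Lss, Pdia6, Ppard, Gbp3, Npas4 and Gprc5d. Pdia6, a disulfide isomerase of the endoplasmic reticulum, read 8.86, 8.77 and 8.78 in DBA/2J, against 8.59, 8.79 and 8.73 in C57BL/6J after sleep deprivation and 7.91, 7.87 and 7.98 in DBA/2J, against 8.25, 8.27 and 8.27 in C57BL/6J in controls. The strains overlapped in the sleep-deprived brains, and the interaction was 0.45 (95% interval 0.21 to 0.69). Lss, lanosterol synthase of cholesterol synthesis, gave -0.24 ± 0.10 after sleep deprivation and 0.29 ± 0.10 in controls. Ffar2, a receptor for short-chain fatty acids, gave -0.45 ± 0.12 and 0.33 ± 0.12, and its values were near the bottom of the scale in both strains. Sgk1 gave -0.60 ± 0.18 after sleep deprivation and 0.12 ± 0.18 in controls, with an interaction of -0.71 (-1.26 to -0.17). For Pam, the difference was 1.76 ± 0.11 after sleep deprivation and 1.28 ± 0.11 in controls (interaction 0.48, 0.16 to 0.81). These intervals are unadjusted and belong to genes picked for their small p or named above.

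In liver of the same strains after sleep deprivation, 2756 probe sets were called (6.12%). Of the 915 brain calls 328 (35.8%) were also called in liver, which was 11.9% of the liver calls. The direction was the same for 311 and opposite for 17. By gene 130 of the 350 were called in both tissues (8.11% of all genes were called in liver), 118 in the same direction and 12 in opposite directions. A test of the difference between the tissues over all 36 arrays called 1252 probe sets (2.78%) and 665 genes (3.66%), and among the 350 brain-called genes 122 were called (34.9%). The brain calls were chosen for their differences in brain, so a share above that of all genes is built into this count.

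Cap1 was higher in DBA/2J in both tissues, by 3.86 ± 0.13 in brain and 3.11 ± 0.13 in liver. Glo1 (0.96 ± 0.13 in brain and 1.15 ± 0.09 in liver), Alad (1.46 and 1.32) and Rpl14 (1.60 and 1.16) likewise passed in both, and the difference between tissues was not called for these 3. Tmem267 was lower by 3.10 in brain and 3.28 in liver. Other genes differed in brain but were near the bottom of the scale in liver, where a strain difference was not detectable. Snhg14 read 2.32, 2.53 and 2.58 in DBA/2J, against 2.59, 2.56 and 2.46 in C57BL/6J in liver. Kcnj9 read 3.24, 3.11 and 3.15 in DBA/2J, against 3.11, 3.15 and 3.24 in C57BL/6J, and Soga3 read 3.16, 3.34 and 3.16 in DBA/2J, against 3.09, 3.07 and 3.22 in C57BL/6J. The strains overlapped in liver for all 3, and the Snhg14 tissue difference of 4.55 ± 0.29, liver minus brain, was the largest among brain-called genes (adjusted p = 7.86e-13). Ang, angiogenin, a secreted ribonuclease, was lower in DBA/2J by 1.52 in brain and by 5.22 in liver.

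The 12 genes with opposite directions were Acer3, Etnppl, Enpp5, Slc39a2, Ackr1, Plaat3 and Mtmr7, lower in DBA/2J brain and higher in DBA/2J liver, and Slc15a2, Atg16l2, Mlycd, Car2 and Nhsl1, the reverse. Acer3 gave -1.88 ± 0.21 in brain and 1.03 ± 0.15 in liver. Atg16l2, a relative of an autophagy gene, gave 0.84 ± 0.15 in brain and -1.83 ± 0.15 in liver. Car2, carbonic anhydrase 2, an oligodendrocyte enzyme in brain, averaged 11.10 ± 0.08 in DBA/2J, against 10.52 ± 0.05 in C57BL/6J brain (SD, n = 3 each), a difference of 0.58 ± 0.09. In liver it was lower in DBA/2J, at -0.48 ± 0.12. Etnppl, an astrocyte enzyme that breaks down phosphoethanolamine, read 5.90, 5.55 and 6.05 in DBA/2J, against 7.10, 7.29 and 7.54 in C57BL/6J in brain (-1.48 ± 0.15), and its liver difference was 0.97 ± 0.26. Slc15a2, a peptide transporter, was called in both directions in brain by different probe sets, at 1.20 and -1.20. The brain call was lost without DBA/2J array 1 (0.0980) or DBA/2J array 3 (0.107) for Slc15a2, DBA/2J array 1 (0.103) or C57BL/6J array 1 (0.0778) for Nhsl1, DBA/2J array 1 (0.0538), DBA/2J array 2 (0.0803), C57BL/6J array 2 (0.0633) or C57BL/6J array 3 (0.0805) for Plaat3, DBA/2J array 2 (0.0572) for Enpp5 and DBA/2J array 1 (0.0582) for Mtmr7, with the adjusted p in brackets. With only the 6 arrays fitted, adjusted p was 0.0869 for Atg16l2, 0.0562 for Car2, 0.153 for Mlycd, 0.0631 for Ackr1, 0.228 for Mtmr7, 0.114 for Plaat3, 0.484 for Slc15a2 and 0.421 for Nhsl1. Without AKR/J adjusted p was 0.0971 for Slc15a2 and 0.0706 for Nhsl1. With arrays centred on their medians it was 0.0624 for Plaat3.

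**Figure D5:**
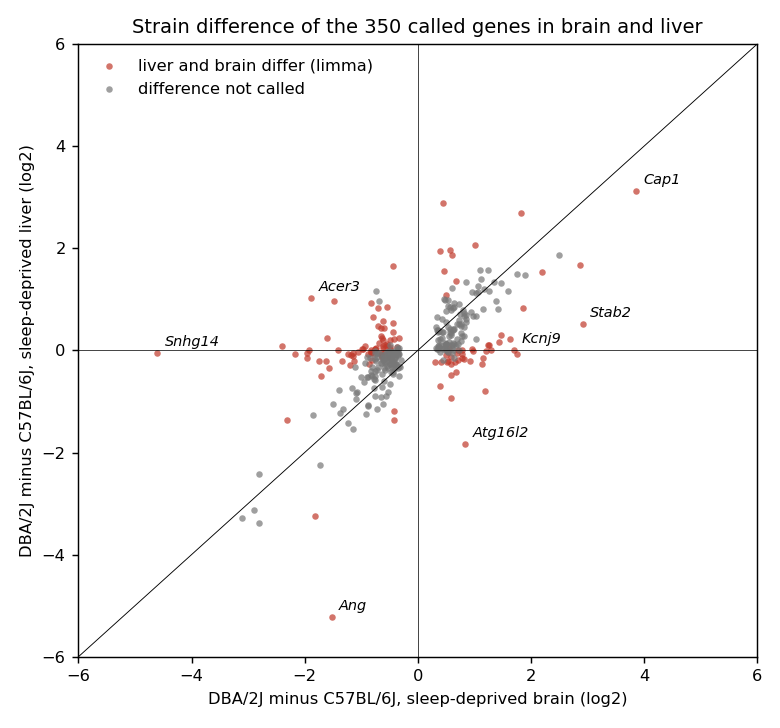
Each point is 1 of the 350 genes called in sleep-deprived brain, with its log2 difference of DBA/2J minus C57BL/6J in brain on the horizontal axis and in liver on the vertical axis. Red marks the 122 genes whose strain difference differed between the tissues in limma, among them Snhg14 near 0 in liver and Ang at -5.22 in liver.

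The sleep-deprived AKR/J arrays placed another inbred strain beside these values. DBA/2J differed from AKR/J at 704 probe sets (1.56%), and AKR/J differed from C57BL/6J at 815 (1.81%). These comparisons share arrays with the one above, so only levels are given here. For Cap1 the AKR/J arrays read 5.81, 5.68 and 5.87, near the C57BL/6J values, and for Stab2 they read 4.13, 4.07 and 4.44, within or near the C57BL/6J range. For Tmem87a they read 7.87, 7.89 and 7.74, for Kcnj9 9.09, 9.16 and 8.87 and for Glo1 10.17, 10.06 and 10.07, all near the DBA/2J values. Snhg14 read 8.32, 8.32 and 8.14 in AKR/J, within the C57BL/6J range, while Soga3 read 6.81, 6.81 and 6.67, within or near the DBA/2J range. Rpgrip1, at 4.12, 3.73 and 4.51 in AKR/J, lay below both of the other strains, and so did Pisd-ps3.

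Some called genes were direct neighbours on a chromosome. Of 347 called genes that could be placed in gene order, 38 (10.95%) had a called gene directly beside them, against 680 of all 18027 placed genes (3.77%). The 38 genes formed 19 pairs, of which 13 had the same direction and 6 opposite directions. Kcnj9 and Kcnj10 are such a pair, both higher in DBA/2J with the limits on Kcnj10 given above, as are Cap1 and Ppt1, a lysosomal thioesterase (8.84, 8.65 and 8.84 in DBA/2J, against 7.95, 8.36 and 8.40 in C57BL/6J). Ppt1 differed by 0.54 ± 0.11 and did not pass without DBA/2J array 1 (0.0515) or DBA/2J array 3 (0.0536). Alad and Hdhd3 were both higher (1.46 and 0.73), and C1qb and C1qc both lower. Ackr1, an atypical chemokine receptor, and Cadm3, a neuronal adhesion molecule, were both lower (-0.61 and -0.49). Opposite directions were seen for Rpgrip1 and Supt16, a histone chaperone subunit (-2.89 and 1.26). With only the 6 arrays fitted, adjusted p was 0.0631 for Ackr1, 0.132 for Cadm3 and 0.299 for Ppt1. Some of the paired calls were weak. Entpd3 and Manbal did not pass in 11 of 16 alternatives each, and Kcnj10, Scnm1, Sgk3 and Tmc7 in 8 of 16. Cap1, Alad, C1qb and C1qc failed in 0 of 16. The share of neighbours among called genes was not recomputed under the alternatives. It has no test here, and genes in families may share probes with their neighbours.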

How the data were processed

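The values are log2 expression values that the authors made with RMA and deposited, per the submitters' processing notes. No RMA version is given in the sources used here. The method subtracts background, equalises the distributions of the arrays and summarises the probes of a probe set, which compresses differences of dim probe sets. Arrays have no sequencing depth, and their number limits the precision. Values had 0 gaps, and 0 value columns lacked a sample. Brain and liver arrays differed in their medians, so levels were not compared across tissues.

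Gene names came from the platform annotation, updated by gene identifier (34741 of 34945 probe sets with 1 symbol) through a table of assembly GRCm38.p6; 932 probe sets had several symbols and 9160 none. Gene order came from the same table, which gave no coordinates here. The 18 brain arrays were fitted as 6 group means with limma 3.58.1 in R 4.3.3, and contrasts gave the strain difference in each condition and the interaction. Liver was fitted alike, and 36 arrays as 12 groups gave the tissue difference. P-values are two-sided and Benjamini-Hochberg adjusted over 45037 probe sets. Fits were tested on simulated data.

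Each gene stands for its probe set of highest mean over the brain arrays. Named genes were the 15 largest called differences per direction without overlap between strains, the 10 smallest interaction p, up to 4 called members per list, a fixed set of 15 genes (14 analysed here), 6 genes with probe sets in opposite directions and 5 with the largest tissue differences. Genes named for neighbours, opposite liver directions, or as uncalled list members were chosen after their values were seen. The members, 19 pathway lists and 15 marker lists were chosen with earlier results of these data known. Alternatives changed the arrays fitted, normalisation, filter, weights, variance model and probe set rule.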

Additional observations from a re-analysis of the deposited data

Results flagged for a closer look

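The strain difference differed between liver and brain, by limma's test over all 36 arrays, for 122 of the 350 genes called in sleep-deprived brain. Over all genes 3.66% were called in this test. The 350 were chosen for their differences in brain, which enter the test. A larger share and smaller differences in liver are thus partly built in. Values are liver minus brain of the difference of DBA/2J minus C57BL/6J on the log2 scale, and a negative value for a gene higher in DBA/2J brain means a smaller or opposite difference in liver. Among the genes higher in DBA/2J brain, the value was -2.40 for Stab2, -1.84 for Pisd-ps3, -1.70 for Kcnj9, -1.42 for Serpina1b, -1.20 for Tmem87a, -1.18 for Prune2, -1.03 for Gnb1, -0.75 for Cap1 and -0.67 for Wdfy1. Hddc3 differed more in liver, at 0.87, and Atg16l2, at -2.67, had opposite directions in the tissues. Among the genes lower in DBA/2J brain, the value was 4.55 for Snhg14, 2.91 for Acer3, 2.49 for Soga3, 2.09 for 1500011B03Rik, 1.93 for Krt12, 1.90 for Nek2, 1.81 for Sbsn, 1.53 for Ddah1 and 0.95 for Stk25. Prune2 and 1500011B03Rik were called in both directions in brain by different probe sets, and their values are those of the brightest. Ang and Zfp874a were lower in both tissues and more so in liver, at -3.71 and -1.43. Genes dim in 1 tissue have compressed differences there, and the part of this in the values was not tested.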

How the results depend on the processing

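Against 915 probe sets called in sleep-deprived brain, the count moved most with the arrays fitted, their weights and the rule. It was 345 with only the 6 arrays fitted, 4517 with array weights and 269 with a size of at least 1 demanded. By gene these fits gave 117 and 1938 in place of 350. Leaving out 1 array at a time gave 661 to 877 probe sets and 248 to 347 genes. Without DBA/2J array 2, 449 of 877 calls were higher, against 361 of 915 with it, and with arrays centred on their medians 349 were higher and 425 lower. Control brain calls numbered 2130 with array weights and 1652 without the arrays of narrow spread, and 594 to 711 with 1 array left out, against 854. The interaction held 0 calls under all alternatives run. Leaving out 1 array gave 476 to 715 calls for DBA/2J minus AKR/J, 535 to 923 for AKR/J minus C57BL/6J (535 without AKR/J array 1), 1872 to 2233 in liver and 968 to 1239 for the tissue difference. For the comparisons with AKR/J and for the tissue difference these fits were added after the data were seen. Deviations of same-numbered arrays of the strains had correlations of -0.56, -0.47 and 0.43 after sleep deprivation and 0.32, -0.11 and -0.33 in controls. These signs are mixed, and so few values cannot settle whether the numbers pair the arrays. A replicate block gave 836 calls in sleep-deprived brain, 794 in control brain, 0 for the interaction and 2792 in liver. On the median of a gene's probe sets, 9 genes turned direction: Prune2 (-1.31), Camk2n1 (-0.97), Ppt1 (-0.0056), Cadm3 (0.20), Csnk1e (0.92), Xaf1 (0.72), Prdx2 (-1.11), Slc15a2 (-0.50) and Nhsl1 (-0.083), as that rule mixes probe sets that disagree. Over all named genes and alternatives, 190 values kept their direction but no longer passed, and 27 newly passed. Of the 9 that turned, Ppt1, Cadm3, Slc15a2 and Nhsl1 did not pass either (adjusted p = 0.998, 0.380, 0.345 and 0.906). The cause of these changes was not tested beyond the fewer arrays or residual degrees of freedom that an alternative has by construction. Signal limits dim genes such as Ffar2, Nek2 and Acer3, whose DBA/2J values lie near the bottom of the scale.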

Other observations

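Some well-known brain genes were called in sleep-deprived brain only on a probe set other than their brightest, and these are given as values with no direction for the gene. Map2, the dendritic microtubule protein, had such a call at 1.85, while its brightest probe set gave 0.16. Prdx2, a peroxide-reducing enzyme, had one at -2.46, against 0.24 on its brightest. Mobp, a myelin protein, had one at -0.86, against -0.20. Xaf1, an interferon-induced gene, had one at 1.94, against -0.50. Mtmr7, a phosphoinositide phosphatase, was called lower on both of its probe sets, at -0.44 on the brightest and -3.67 on the other.

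Further neighbouring pairs of called genes with the same direction included Dennd10 with Sfxn4, a mitochondrial protein (0.60 and 0.77). Sfxn4 did not pass without DBA/2J array 3 (0.0529), and Dennd10 did not pass without DBA/2J array 1 (0.0533) or DBA/2J array 3 (0.0657). The pair 2610507I01Rik and Mrpl55, a mitochondrial ribosomal protein, was lower in DBA/2J (-1.10 and -0.80). The pair 6820431F20Rik and 2610005L07Rik was higher (1.17 and 1.02), and 6820431F20Rik did not pass without DBA/2J array 1 (0.0618) or C57BL/6J array 1 (0.0523). Without AKR/J adjusted p was 0.0527 for Dennd10 and 0.0524 for 6820431F20Rik. Opposite directions were seen for Hspb6, a small heat shock protein that was lower, and Lin37, a subunit of a cell cycle repressor, at 0.58.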
